A study of Mus musculus with 20 samples.

Results

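The 8 genes described here handle arginine in macrophages: Nos2, Gch1, Slc7a2, Ass1, Asl, Arg1, Arg2 and Odc1. They were chosen by name, for nitric oxide, arginine and biopterin metabolism, among the 24421 genes listed in every library. RNA was sequenced from mouse bone marrow-derived macrophages (BMDM), cells grown out of marrow in medium conditioned by L929 cells, a fibroblast line that secretes the macrophage growth factor CSF-1. Cells of 5 mice were each given 4 formulations for 48 h, which made 20 libraries, 5 per group. The groups are named as labelled: LP 3M PIC, the formulation with both adjuvants, then LP 3M and LP PIC with 1 adjuvant each, and LP, the lipoparticle with neither. All cultures were given the lipoparticle, and no untreated cells are among the samples used here. The labels name no allele, and the mice's strain, age and sex, the doses and the meaning of the codes 3M and PIC are not stated in the labels.

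Inducible nitric oxide synthase splits arginine into nitric oxide and citrulline and needs tetrahydrobiopterin, whose synthesis starts with GTP cyclohydrolase. Citrulline is turned back into arginine by argininosuccinate synthase and argininosuccinate lyase, and cationic amino acid transporters bring arginine in from the medium. Arginases draw on the same arginine to make urea and ornithine, and ornithine decarboxylase passes ornithine on to polyamines. In mouse macrophages Nos2 is a standard mark of classical activation, and Arg1 of alternative activation.

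Library totals ran from 9740528 to 23874805 counts with a median of 22751911. Levels are in CPM, which divides each count by its library's total of gene counts on a common scale, and 3 counts, taken as the floor, correspond to 0.126 to 0.308 CPM. Floors cover counting error only. The summed level of 9 macrophage markers was 11540 to 27010 CPM, and those of dendritic cell, T cell, B cell, NK cell and mast cell markers were at most 1.05 CPM. Neutrophil and fibroblast markers are given below by mouse. In such bulk samples, fewer cells of a type and less RNA per cell cannot be told apart. Of the 8 genes, 7 passed the filter on low counts. Nos2, Arg1 and Arg2 passed it through the formulations in which they were high. The counts of called genes given below, those for the interaction among them, include these genes where called, although they were tested because of those levels. Ass1 did not pass.

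Differences are log2 fold changes ± SE from edgeR's quasi-likelihood test, with p-values adjusted by the Benjamini-Hochberg method over 12132 tested genes, and a gene is said to have risen or fallen where the adjusted p was under 0.05. In LP 3M PIC against LP, 6 of the 7 tested genes rose, where 31.7% of all tested genes rose. In LP 3M against LP, 4 rose, beside 20.0% of all tested genes. In LP PIC against LP, 5 rose, beside 22.7%. The median change of the 7 was 4.09 in LP 3M PIC, 1.36 in LP 3M and 1.69 in LP PIC, where the median over all tested genes was 0.02, -0.01 and -0.000357. The median of 4.09 is the change of Arg1 itself, whose call in LP 3M PIC was lost without mouse 2. These 3 comparisons share the same 5 LP libraries.

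**Figure D1:**
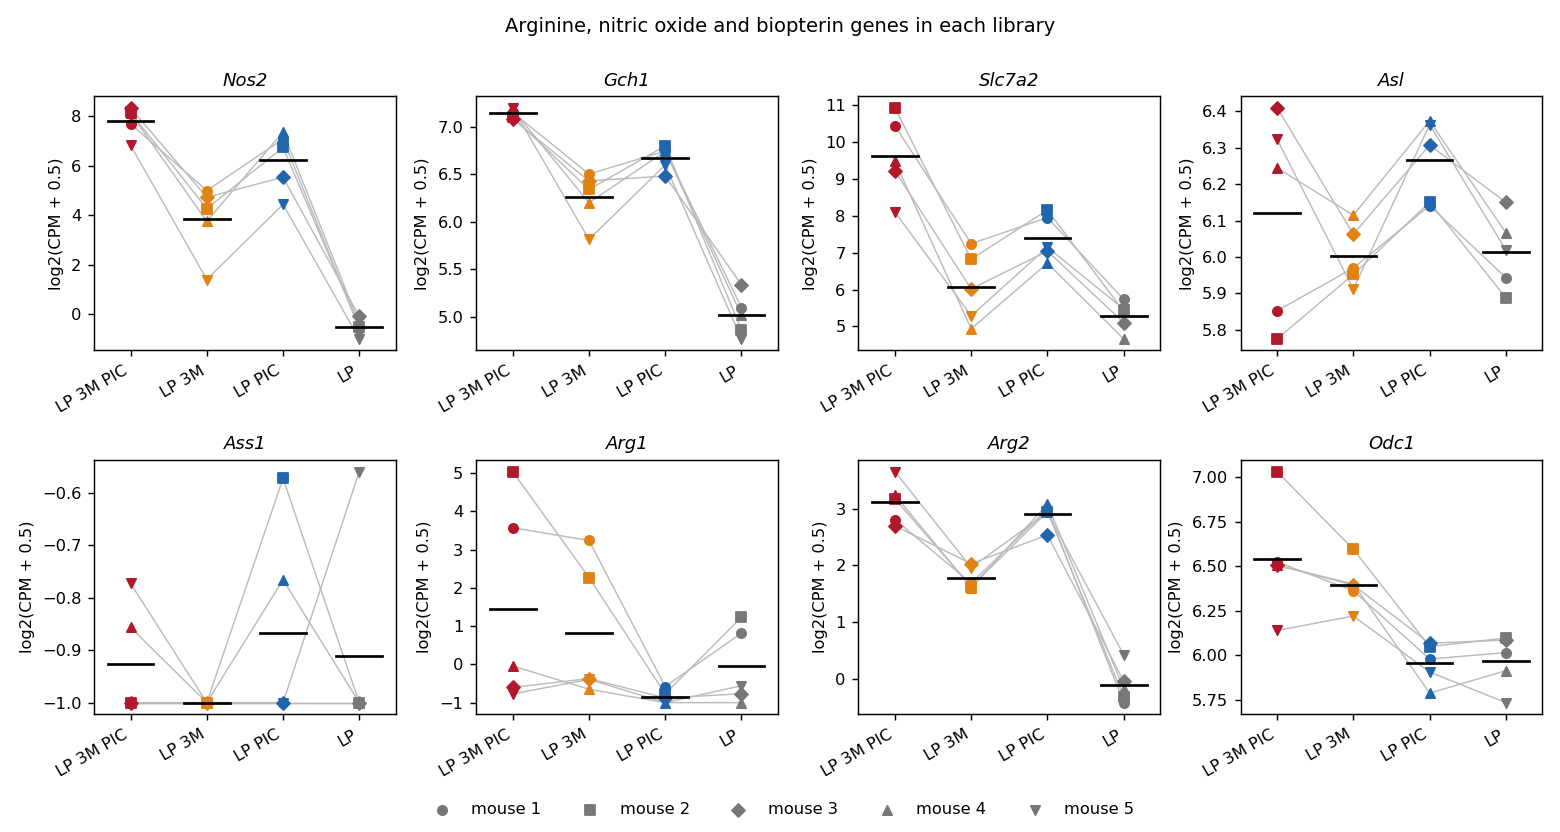
Level of each of the 8 genes in every library, as log2(CPM + 0.5), 1 panel per gene, with groups in the order LP 3M PIC, LP 3M, LP PIC and LP, 1 point per mouse and a bar at the group mean. Nos2, Gch1 and Arg2 separate all 3 adjuvant formulations from LP, Asl stays within 54.2 to 84.5 CPM, and Ass1 lies at the floor.

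Nos2 encodes inducible nitric oxide synthase (chromosome 11, 78920787 to 78960254, plus strand, GRCm38). In mice 1 to 5 it stood at 206, 283, 321, 277 and 113 CPM in LP 3M PIC and at 31.3, 18.7, 25.8, 12.97 and 2.14 CPM in LP 3M. In the same mice it stood at 134, 106, 45.8, 164 and 21.1 CPM in LP PIC, against 0.168, 0.205, 0.436, 0.261 and 0 CPM in LP. The LP libraries held 0 to 10 reads of it, close to the floor, and every library with an adjuvant lay above every LP library. Mouse 5 gave the lowest value in all 4 groups. Nos2 averaged 240.0 ± 82.5 CPM in LP 3M PIC, 18.2 ± 11.3 CPM in LP 3M, 94.2 ± 59.8 CPM in LP PIC and 0.214 ± 0.158 CPM in LP (SD, n = 5 each). Against LP it rose by 10.19 ± 0.91 in LP 3M PIC (adjusted p = 2.38e-08), by 6.47 ± 0.90 in LP 3M (2.23e-05) and by 8.77 ± 0.89 in LP PIC (3.06e-07). With so few LP reads these fold changes lean on a handful of counts.

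Between the formulations with an adjuvant, Nos2 was highest with both. It was higher in LP 3M PIC than in LP 3M by 3.72 ± 0.59 (adjusted p = 7.99e-05, higher in 5 of 5 mice, groups apart). It was higher in LP 3M PIC than in LP PIC by 1.42 ± 0.53 (adjusted p = 0.0369), but the groups overlapped. The call on that last difference was lost without mouse 1 (0.0557), 2 (0.11), 3 (0.158) or 4 (0.0582), without the LP 3M PIC library of mouse 3 (0.0724), without the filter (0.0764) and with DESeq2 (0.0631), over a range of 0.00155 to 0.178 across the settings tried. LP 3M lay below LP PIC (-2.30 ± 0.56, adjusted p = 0.00249).

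Gch1 encodes GTP cyclohydrolase, which makes the first step towards tetrahydrobiopterin (chromosome 14, 47153895 to 47189413, minus strand). It stood at 141, 137, 135, 145 and 146 CPM in LP 3M PIC and at 90.1, 80.5, 85.8, 73.1 and 55.8 CPM in LP 3M, mice 1 to 5. In LP PIC it stood at 107, 111, 88.8, 106 and 96.4 CPM, against 33.8, 28.6, 40.01, 31.999 and 26.8 CPM in LP. The libraries of LP 3M PIC lay above all others and those of LP below all others, while LP 3M and LP PIC overlapped. Gch1 averaged 141 ± 4.86 CPM in LP 3M PIC, 77.1 ± 13.5 CPM in LP 3M, 102 ± 9.003 CPM in LP PIC and 32.3 ± 5.13 CPM in LP (SD, n = 5 each), so that it varied least among mice where it was highest. Against LP it rose by 2.23 ± 0.13 in LP 3M PIC (adjusted p = 8.42e-11), by 1.36 ± 0.13 in LP 3M (1.5e-07) and by 1.69 ± 0.13 in LP PIC (7.29e-09).

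Gch1 was also higher in LP 3M PIC than in either formulation with 1 adjuvant. The difference was 0.87 ± 0.12 against LP 3M (adjusted p = 2.59e-05) and 0.54 ± 0.12 against LP PIC (0.00173). LP 3M lay below LP PIC by a small margin (-0.33 ± 0.12, adjusted p = 0.0332), a call lost without mouse 2 (0.0892), 4 (0.13) or 5 (0.0698) or without the LP 3M library of mouse 5 (0.0857), over a range of 0.00644 to 0.13.

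The RefSeq promoter of Gch1 (GRCm38.p6, chr14:47189364-47189663, minus strand, 250 bases before to 50 after the start) is shown because the gene rose in all 3 comparisons with LP. The promoter of Odc1 (chr12:17544623-17544922, plus strand) is set beside it as that of a gene that rose only where 3M was present, which is a count of calls and no test of a difference between promoters. Both run 5′ to 3′, and capitals mark matches to the motifs searched.
Gch1: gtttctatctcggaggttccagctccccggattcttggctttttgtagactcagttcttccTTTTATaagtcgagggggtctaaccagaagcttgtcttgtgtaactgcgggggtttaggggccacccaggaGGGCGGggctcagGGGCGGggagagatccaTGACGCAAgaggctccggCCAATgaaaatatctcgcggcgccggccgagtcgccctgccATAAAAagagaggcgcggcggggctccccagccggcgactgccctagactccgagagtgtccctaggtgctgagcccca
Odc1: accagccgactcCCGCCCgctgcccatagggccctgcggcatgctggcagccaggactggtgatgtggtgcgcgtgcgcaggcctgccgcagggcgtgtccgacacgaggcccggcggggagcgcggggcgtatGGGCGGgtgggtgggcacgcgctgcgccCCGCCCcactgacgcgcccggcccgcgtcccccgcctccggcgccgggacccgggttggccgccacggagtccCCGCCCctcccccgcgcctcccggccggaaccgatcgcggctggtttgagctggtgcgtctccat
The motifs were searched on both strands by exact letters, with N for any base, and overlapping matches were each kept. Counted from the start site, Gch1 holds the cyclic AMP response-like motif TGACGNNA at -88, a CCAAT box at -70, GC boxes (GGGCGG) at -118 and -105, and the TATA-like ATAAAA at -29 and, on the other strand, at -189. Odc1 holds GC boxes at -238, -116, -88 and -15. Of 32851 RefSeq promoters of this length, 6.61% hold TGACGNNA, 37.4% CCAAT, 35.7% GGGCGG and 18.5% ATAAAA. The letters of a gamma-activated motif (TTCNNNGAA, 8.3% of promoters), an AP-1 motif (TGANTCA, 7.81%) and an E-box (CACGTG, 7.15%) are in neither window. The GC content of the windows was 60.3% for Gch1 and 78.0% for Odc1. A kappaB-type and an interferon response motif were also searched at first and are not reported here. These matches describe the letters and show no binding.

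Slc7a2 encodes a cationic amino acid transporter, CAT2, that carries arginine into macrophages (chromosome 8, 40862396 to 40922308, plus strand). In LP 3M PIC it stood at 1381, 1932, 592, 708 and 273 CPM in mice 1 to 5, and in LP 3M at 151, 113, 64.2, 30.1 and 38.6 CPM. In LP PIC it stood at 246, 284, 131, 104 and 141 CPM, against 52.8, 42.1, 34.0, 24.9 and 43.8 CPM in LP. Mice 1 and 2 were the highest in each formulation with an adjuvant. LP 3M PIC and LP PIC both lay above every LP library, while LP 3M overlapped LP and the lowest LP 3M PIC library, that of mouse 5, fell inside the LP PIC range. The averages were 977 ± 669 CPM in LP 3M PIC, 79.3 ± 51.3 CPM in LP 3M, 181 ± 78.7 CPM in LP PIC and 39.5 ± 10.6 CPM in LP (SD, n = 5 each). An annotated non-coding gene, Gm26584, shares exon bases with Slc7a2 on the opposite strand and is not among the counted genes, so any reads of it could not be told apart if the counting ignored strand.

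Against LP, Slc7a2 rose by 4.76 ± 0.56 in LP 3M PIC (adjusted p = 7.94e-07) and by 2.24 ± 0.51 in LP PIC (0.00142). Its change in LP 3M, 1.13 ± 0.49, did not pass the test (adjusted p = 0.0751, higher in 4 of 5 mice). With the mouse as a block it passed (0.0337), as it did without mouse 5 (0.0456), over a range of 0.0337 to 0.42 across the settings tried. LP 3M PIC exceeded LP 3M by 3.63 ± 0.53 (4.13e-05) and LP PIC by 2.52 ± 0.51 (0.000648), in 5 of 5 mice each time. The difference between LP 3M and LP PIC, -1.11 ± 0.49, did not pass without the block (adjusted p = 0.0699) and did with it (0.00383).

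Asl, the argininosuccinate lyase that completes the return of citrulline to arginine (chromosome 5, 130011258 to 130029247, minus strand), was among the steadiest of the 8. It ranged from 54.2 to 84.5 CPM in LP 3M PIC, from 59.7 to 68.8 CPM in LP 3M and from 70.1 to 82.4 CPM in LP PIC, against 58.7 to 70.5 CPM in LP. Its group means were 70.2 ± 13.6, 63.7 ± 3.76, 76.7 ± 6.04 and 64.2 ± 4.62 CPM in that order (SD, n = 5 each). It rose by 0.30 ± 0.10 in LP PIC against LP (adjusted p = 0.0253), a small change whose call was lost without mouse 1 (0.051), 4 (0.093) or 5 (0.091) or without the LP library of mouse 2 (0.0658), over a range of 0.00289 to 0.093. In LP 3M PIC against LP the change of 0.23 ± 0.10 missed the threshold (adjusted p = 0.0591), and passed it with the mouse as a block (0.0134). In LP 3M it was 0.09 ± 0.10 (0.499), a direction that flipped to -0.013 without scaling factors. LP 3M lay below LP PIC in every library, by -0.20 ± 0.10 (adjusted p = 0.114, 0.0325 with the block).

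Ass1, the argininosuccinate synthase that precedes Asl in the same cycle (chromosome 2, 31470207 to 31520672, plus strand), had 13 reads in all 20 libraries together and at most 4 in any of them. It has a processed pseudogene copy, Gm5424, that is 99.5% identical over 1240 of the 1696 bases of its transcript, and the copy was listed at 0 in every library. Reads that match more than 1 place can be lost in counting, and whether that happened here was not tested. The level of Ass1 is therefore uncertain, and no fold change is given for it.

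Arg1, the cytosolic arginase (chromosome 10, 24915221 to 24927484, minus strand), was low, and reached its highest levels in mice 1 and 2. Mice 1 to 5 held 245, 755, 2, 9 and 2 reads of it in LP 3M PIC and 213, 95, 6, 3 and 6 in LP 3M. They held 4, 2, 1, 0 and 0 reads in LP PIC and 30, 18, 2, 0 and 4 in LP. In CPM, LP 3M PIC of mice 1 and 2 stood at 11.4 and 32.3 and LP 3M of these mice at 8.92 and 4.31, and in no other library did Arg1 pass 1.85 CPM. Its means were 8.87 ± 13.9 CPM in LP 3M PIC, 2.78 ± 3.86 CPM in LP 3M, 0.0599 ± 0.0709 CPM in LP PIC and 0.675 ± 0.832 CPM in LP (SD, n = 5 each), so that every SD exceeded its mean and all groups overlapped. It rose in LP 3M PIC by 4.09 ± 1.43 against LP (adjusted p = 0.0187), higher in 4 of 5 mice. Leaving out mouse 2 ended that call (3.11, adjusted p = 0.101, range 5.49e-05 to 0.101). It also rose in LP 3M PIC by 7.11 ± 1.85 (0.00465) and in LP 3M by 5.42 ± 1.91 (0.0261) against LP PIC, a group with 7 reads in all, and the second of these was lost without mouse 1 (0.121) and without the filter (0.0541), over a range of 3.01e-05 to 0.121.

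The other comparisons of Arg1 passed only when the mouse was used as a block, which compares the groups within mice. Against LP, LP 3M differed by 2.40 ± 1.43 (adjusted p = 0.193) without the block and by 2.23 (0.00586) with it, and LP PIC by -3.02 ± 2.26 (0.293) without it and by -3.40 (0.00609) with it. LP 3M PIC differed from LP 3M by 1.69 ± 1.20 (0.273), or by 1.26 (0.0424) with the block. In LP 3M PIC and LP 3M, but not in LP PIC or LP, the libraries of mice 1 and 2 also carried the most RNA of the neutrophil marker list. The summed level of its 7 counted genes in mice 1 to 5 was 101, 538, 4.86, 20.0 and 10.9 CPM in LP 3M PIC and 16.6, 17.2, 4.04, 4.79 and 7.72 CPM in LP 3M. It was 3.72, 2.94, 3.11, 5.03 and 5.76 CPM in LP PIC and 1.26, 1.437, 1.70, 1.83 and 3.49 CPM in LP. Most of it was S100a8, a calprotectin subunit, at 99.5 and 536 CPM in LP 3M PIC of mice 1 and 2. S100a9, Elane, Mpo and Ngp had at most 19 reads in any library, Camp at most 48 and Retnlg 0. The summed level of 4 fibroblast markers, all of them counted, was 44.6, 105, 26.2, 29.9 and 30.03 CPM in LP 3M PIC and 63.8, 84.7, 31.9, 35.1 and 29.1 CPM in LP 3M. It was 36.0, 70.9, 37.5, 24.1 and 32.7 CPM in LP PIC and 14.1, 33.9, 36.5, 61.9 and 38.4 CPM in LP. Mice 1 and 2 were thus the highest for this list too in both formulations with 3M, while in LP they were the lowest. This sum mixes genes that went opposite ways between groups. Dcn averaged 26.5 CPM in LP 3M PIC, 22.5 in LP 3M and 14.3 in LP PIC, against 1.33 in LP. Col1a1 averaged 9.67, 12.9 and 12.3 CPM in that order against 18.7 in LP, and Col1a2 10.6, 13.2 and 13.2 CPM against 16.7. The part these RNAs play in the levels of Arg1, and of Slc7a2, which was also highest in mice 1 and 2, was not tested.

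**Figure D2:**
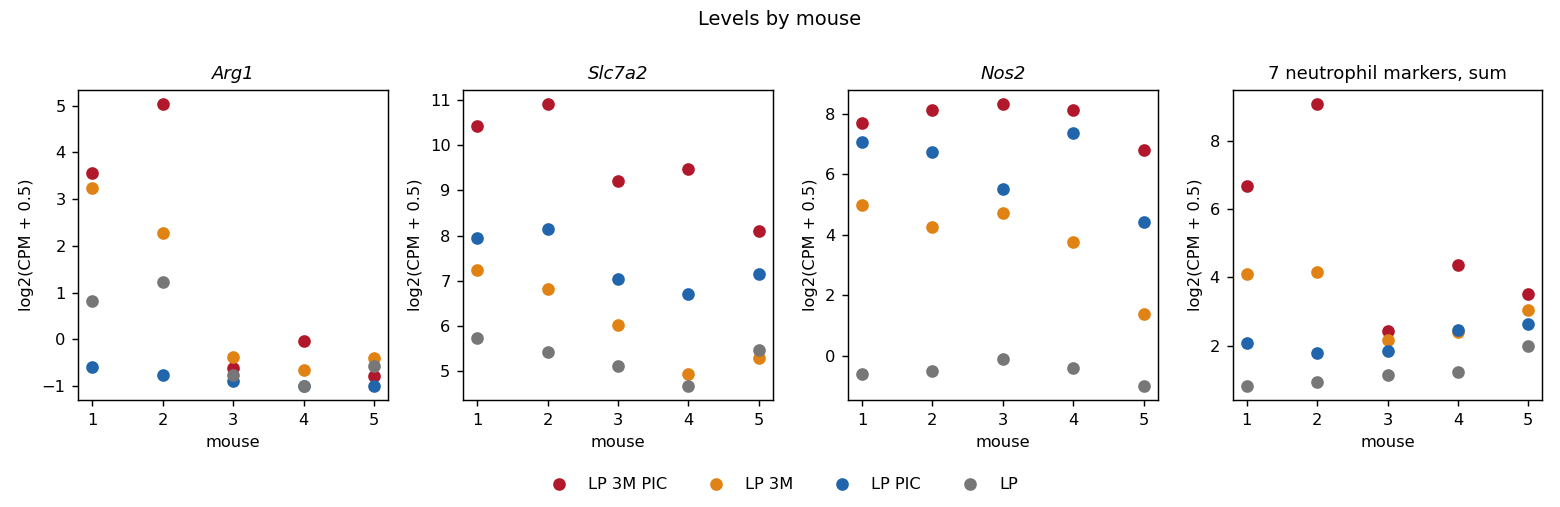
Levels of Arg1, Slc7a2, Nos2 and the sum of 7 neutrophil markers in each mouse as log2(CPM + 0.5), with mice 1 to 5 on the horizontal axis and 1 point per library, coloured by group. Arg1 and the marker sum in LP 3M PIC and LP 3M are highest in mice 1 and 2, while Nos2 in LP 3M PIC is highest in mouse 3.

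Arg2, the mitochondrial arginase (chromosome 12, 79130777 to 79156301, plus strand), did not share this split between mice. It stood at 6.50, 8.51, 5.98, 8.95 and 12.04 CPM in LP 3M PIC and at 2.72, 2.59, 3.59, 2.56 and 3.40 CPM in LP 3M, mice 1 to 5. In LP PIC it stood at 7.45, 7.21, 5.30, 7.94 and 7.14 CPM, against 0.252, 0.308, 0.479, 0.392 and 0.849 CPM in LP. All libraries with an adjuvant lay above LP, and those of LP 3M lay below both formulations with PIC, which overlapped each other. It averaged 8.39 ± 2.40 CPM in LP 3M PIC, 2.97 ± 0.486 CPM in LP 3M, 7.01 ± 1.00 CPM in LP PIC and 0.456 ± 0.236 CPM in LP (SD, n = 5 each). It rose against LP by 4.26 ± 0.26 in LP 3M PIC (adjusted p = 1.53e-10), by 2.76 ± 0.26 in LP 3M (2.17e-07) and by 3.93 ± 0.26 in LP PIC (3.37e-09). The LP libraries held only 3 to 19 reads of it, so these fold changes lean on few counts. LP 3M PIC exceeded LP 3M by 1.501 ± 0.21 (2.5e-05), whereas its difference from LP PIC, 0.33 ± 0.21, did not pass (0.199). LP 3M lay below LP PIC (-1.17 ± 0.21, 0.000194).

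Arg2 shares 285 of its exon bases with Vti1b, a vesicle fusion gene on the opposite strand, so its reads are uncertain if the counting ignored strand. Vti1b averaged 84.9 ± 5.51 CPM in LP 3M PIC, 81.6 ± 4.07 CPM in LP 3M and 88.9 ± 4.09 CPM in LP PIC, against 68.7 ± 3.04 CPM in LP (SD, n = 5 each). How many reads of Arg2 come from the shared bases was not tested.

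Odc1, ornithine decarboxylase, which commits ornithine to polyamines (chromosome 12, 17544794 to 17551505, plus strand), was higher in both formulations with 3M. In mice 1 to 5 it stood at 91.6, 130.4, 90.4, 90.3 and 70.0 CPM in LP 3M PIC and at 81.8, 96.2, 83.6, 84.0 and 74.1 CPM in LP 3M. In LP PIC it stood at 62.6, 65.7, 66.6, 54.7 and 59.5 CPM, against 64.2, 68.0, 67.4, 59.8 and 52.7 CPM in LP. Every library with 3M lay above every library without it, and LP PIC overlapped LP. The means were 94.5 ± 22.0 CPM in LP 3M PIC, 83.9 ± 7.94 CPM in LP 3M, 61.8 ± 4.85 CPM in LP PIC and 62.4 ± 6.32 CPM in LP (SD, n = 5 each). Odc1 rose against LP by 0.72 ± 0.13 in LP 3M PIC (adjusted p = 7.71e-05) and by 0.54 ± 0.13 in LP 3M (0.00258), and LP 3M PIC exceeded LP PIC by 0.69 ± 0.13 (0.000292). The change in LP PIC against LP, 0.03 ± 0.13, did not pass (0.884), and its direction flipped to -0.013 without scaling factors and to -0.022 without mouse 5. LP 3M exceeded LP PIC by 0.51 ± 0.13 (0.00304), which was tested directly. Some Odc1 reads may belong elsewhere, since 13 other genes match its transcript at 95% identity or more, such as Gm9115 at 96.7% over 1349 of 2208 bases.

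Comparing the formulations with each other, 4 of the 7 tested genes were higher in LP 3M PIC than in LP 3M (20.5% of all tested genes were) and 5 were higher in LP 3M PIC than in LP PIC (23.1%). The second count was 3 in mice 3 to 5 alone, where Arg1 was not tested. Between LP 3M and LP PIC, Arg1 and Odc1 were higher in LP 3M and Nos2, Arg2 and Gch1 lower, where 24.4% of all tested genes were higher and 22.7% lower. The order of levels for Nos2 and Gch1 was LP 3M PIC, LP PIC, LP 3M and LP, and each neighbour in it passed the test. For Arg2 and Slc7a2 the order was the same, but LP 3M PIC and LP PIC did not pass for Arg2, nor LP PIC and LP 3M or LP 3M and LP for Slc7a2. For Odc1 the order was LP 3M PIC, LP 3M, LP and LP PIC, and LP 3M against LP was its only pair of neighbours past the test. No pair of neighbours passed for Arg1 or Asl without the block.

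**Figure D3:**
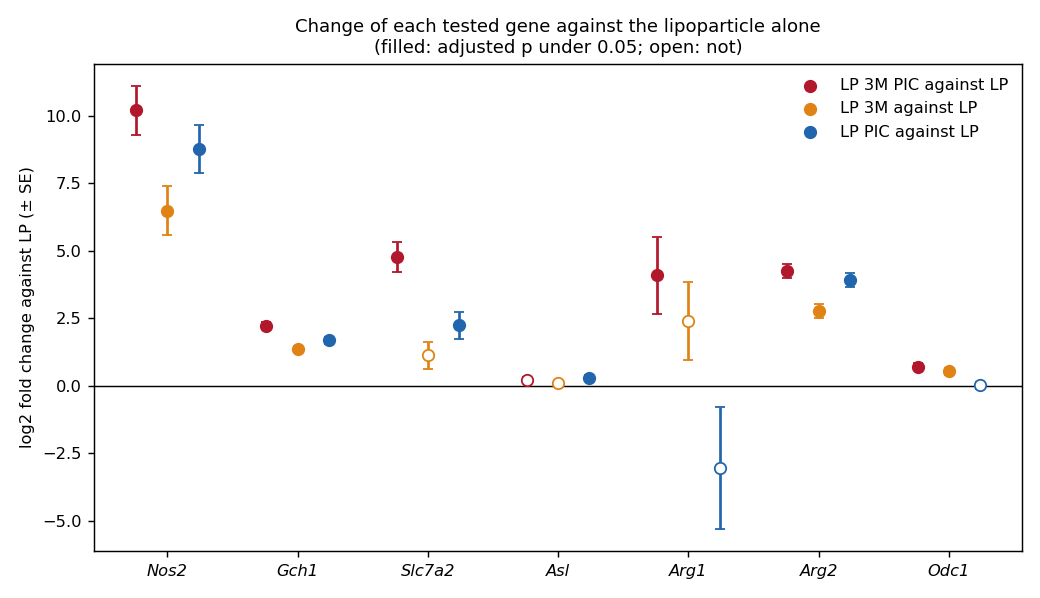
Log2 fold change ± SE of the 7 tested genes against LP in LP 3M PIC, LP 3M and LP PIC, from edgeR's quasi-likelihood test, with filled points where the adjusted p was under 0.05. Nos2 has the changes furthest from 0, 10.19, 6.47 and 8.77 in that order, and Asl and Odc1 stay below 1.

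Scaled by exon length, the genes can be set against each other as levels in CPM per kb. The length used is that of all annotated exon bases of a gene together, not of 1 transcript. For Odc1 it is 3.405 kb, where a transcript of the gene has 2208 bases, so the order can change with the length chosen. In LP 3M PIC, Slc7a2 was at 107, Nos2 at 54.4, Odc1 at 27.8, Gch1 at 22.5, Asl at 14.5, Arg2 at 5.88 and Arg1 at 3.98 CPM per kb. In LP the order began with Odc1 at 18.3 and Asl at 13.3 CPM per kb, followed by Gch1 at 5.16, Slc7a2 at 4.32, Arg2 at 0.319, Arg1 at 0.303 and Nos2 at 0.0485 CPM per kb. Nos2 thus stood last of the 7 in LP and next to the top in LP 3M PIC. In LP 3M it was at 4.12 CPM per kb, below Odc1 at 24.7, Asl at 13.2, Gch1 at 12.3 and Slc7a2 at 8.68, and in LP PIC at 21.3, above Slc7a2 at 19.9 and Odc1 at 18.2 CPM per kb.

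The series title sets single against dual adjuvants, so the change by PIC in the presence of 3M was compared with that in its absence. This interaction, in log2, was negative and passed the test for Nos2 (-5.05 ± 1.11, adjusted p = 0.00932), Arg2 (-2.43 ± 0.33, 0.000215) and Gch1 (-0.82 ± 0.18, 0.00727). That is 3 of 7, where 4.62% of all tested genes passed in that direction. Nos2 and Arg2 passed the filter on low counts through the formulations in which they were high, so the count cannot be read against that share. For Nos2 the 2 single changes summed to 15.24 and the dual change was 10.19. For Arg2 the sum was 6.68 beside 4.26, and for Gch1 3.05 beside 2.23. The changes against LP behind these sums rest on 22 LP reads in all for Nos2 and 48 for Arg2. Within mice, with 0.5 CPM added before the log2, the interaction of Nos2 was negative in 5 of 5 but ran from -4.96 to -0.00711. Slc7a2 pointed the other way, with a sum of 3.37 beside a dual change of 4.76 (1.39 ± 0.69), but did not pass without the mouse as a block (adjusted p = 0.226, and 0.0327 with it at 1.52). Arg1 likewise had 4.71 ± 2.52 (0.267) without the block and 4.67 (0.0081) with it. Without mouse 1, 2 or 4 the calls for Nos2 (0.0913, 0.0527 and 0.0657) and Gch1 (0.0799, 0.0739 and 0.0595) were lost, and in mice 3 to 5 alone, where Arg1 was not tested, the adjusted p was 0.384 for Nos2, 0.0674 for Arg2 and 0.366 for Gch1.

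On the CPM scale the picture per gene was different, because the log2 scale sets ratios against ratios. Here the sum is LP 3M plus LP PIC minus LP within each mouse. Nos2 in LP 3M PIC, 240.0 CPM, exceeded the sum of 112 ± 64.6 CPM in 5 of 5 mice, by a ratio of means of 2.14. Slc7a2, at 977 CPM, exceeded its sum of 221 ± 119 CPM in 5 of 5 mice, by a ratio of 4.42. Gch1 stood at 0.96 of its sum of 147 ± 16.8 CPM and Arg2 at 0.881 of its sum of 9.52 ± 0.665 CPM, above it in 2 and in 1 of 5 mice. For Nos2 the interaction thus has opposite signs on the log2 and CPM scales, while Slc7a2 lay above the sum on both. No test was run on the CPM sums, and both scales assume that the dual formulation holds as much of each adjuvant as the single ones, which the sources used here do not give.

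**Figure D4:**
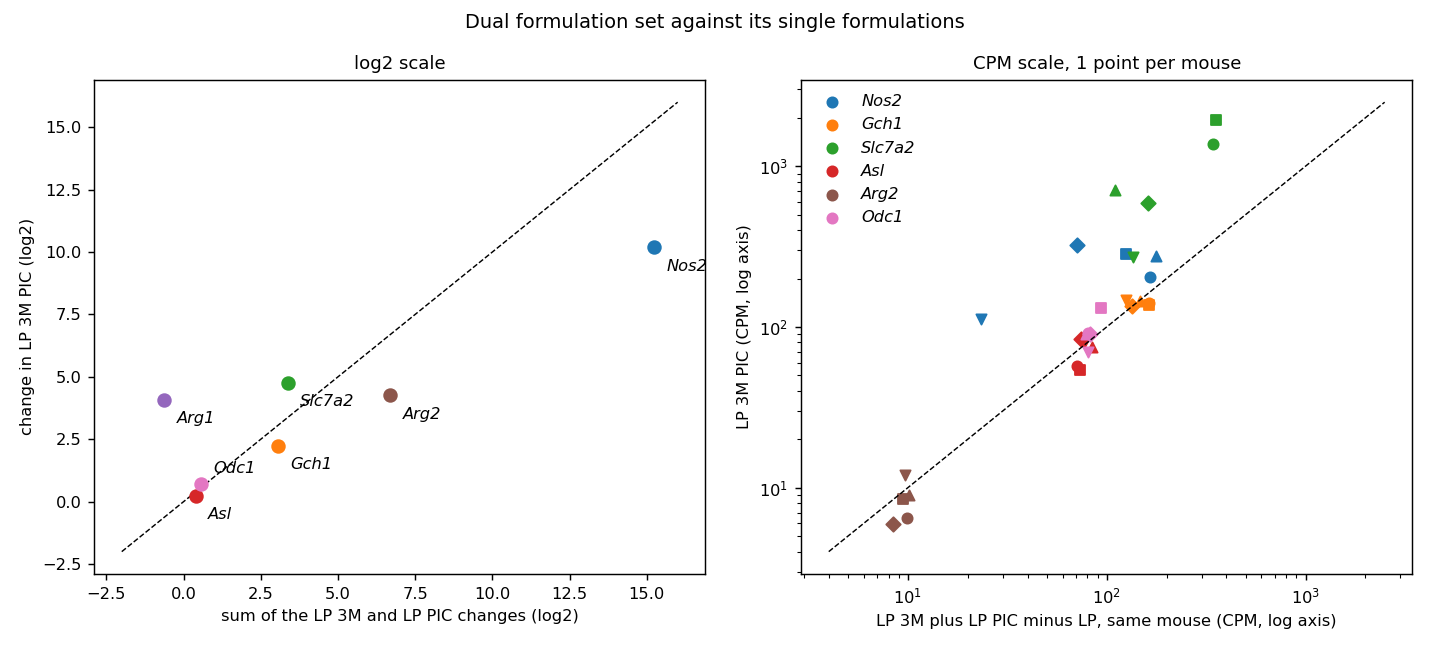
Left, the log2 change of LP 3M PIC against LP for each tested gene (vertical) beside the sum of the 2 single changes (horizontal). Right, CPM in LP 3M PIC beside the sum of single effects in CPM per mouse on log axes for Nos2, Gch1, Slc7a2, Asl, Arg2 and Odc1, with a dashed line of equality, where a circle is mouse 1, a square mouse 2, a diamond mouse 3, and triangles pointing up and down are mice 4 and 5. Nos2 lies below the line of equality on the left (10.19 beside 15.24) and above it in 5 of 5 mice on the right.

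Around these 8 genes, 51 further genes of 5 related lists were looked at, of which 38 were tested. Against LP, 9 rose and 15 fell in LP 3M PIC, 8 rose and 7 fell in LP 3M, and 8 rose and 13 fell in LP PIC. Of all tested genes, 31.7% rose and 30.6% fell in LP 3M PIC, 20.0% rose and 19.5% fell in LP 3M, and 22.7% rose and 22.7% fell in LP PIC. Their median change was -0.31, 0.01 and -0.12 in that order.

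The list of tetrahydrobiopterin synthesis and recycling held 5 tested genes. Pts, which acts on the product of Gch1, fell in LP 3M (-0.38 ± 0.15, adjusted p = 0.0455) and rose in LP PIC (0.36 ± 0.14, 0.0485). In all, 2 of the 5 fell in LP 3M PIC, 1 in LP 3M, and 1 rose and 1 fell in LP PIC. With the mouse as a block, or without mouse 5, 4 of the 5 were called in LP 3M PIC. Leaving out mouse 1, 2, 3 or 4 in turn ended the call in LP 3M and left 1 of those in LP PIC.

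Of 12 tested polyamine genes, 4 rose and 6 fell in LP 3M PIC, 4 rose and 1 fell in LP 3M, and 3 rose and 4 fell in LP PIC. Smox, spermine oxidase, rose in LP 3M PIC by 1.18 ± 0.15 (adjusted p = 1.75e-06) and in LP PIC by 0.41 ± 0.15 (0.0332). Srm, spermidine synthase, rose in LP 3M by 0.63 ± 0.13 (0.000591). Dhps, which uses spermidine to modify the translation factor eIF5A, rose in LP 3M PIC by 0.83 ± 0.08 (9.03e-08), in LP 3M by 0.51 ± 0.08 (0.000114) and in LP PIC by 0.49 ± 0.08 (0.0001). Sat1, which acetylates polyamines for breakdown or export, fell in LP 3M PIC (-1.09 ± 0.14, 1.15e-06) and in LP 3M (-0.78 ± 0.14, 0.000177). Azin1, an antizyme inhibitor that protects ornithine decarboxylase, fell in LP 3M PIC (-0.59 ± 0.11, 0.000168) and in LP PIC (-0.85 ± 0.11, 6.91e-06). Amd1 and Amd2 were listed at 0 in all libraries, and their transcripts are 99.6% identical.

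Of 7 tested transport genes, 4 rose and 1 fell in LP 3M PIC, 3 rose in LP 3M, and 2 rose and 1 fell in LP PIC. Without mouse 1 the 5 calls in LP 3M PIC became 3. Slc7a7, the light chain of an arginine exchanger, rose in LP 3M PIC by 1.47 ± 0.23 (adjusted p = 1.56e-05) and in LP 3M by 1.54 ± 0.23 (3.63e-05). Slc7a1, the transporter CAT1, fell in LP PIC (-0.65 ± 0.11, 0.000128) and rose in LP 3M PIC (0.38 ± 0.11, 0.00673) and in LP 3M (0.49 ± 0.11, 0.00189). Slc7a3 rose in LP 3M PIC (2.03 ± 0.47, 0.00084) and in LP PIC (1.67 ± 0.47, 0.00695) but never had more than 16 reads. It averaged 0.505 CPM in LP 3M PIC and 0.418 CPM in LP PIC, against 0.136 CPM in LP. It thus passed the filter on low counts through the formulations with PIC, in which it was high. Slc25a15, the mitochondrial ornithine carrier, fell in LP 3M PIC (-0.49 ± 0.21, 0.0451).

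In the list of the urea cycle, ornithine, proline and creatine, 5 of 10 tested genes fell in LP 3M PIC, 3 fell and 1 rose in LP 3M, and 6 fell in LP PIC. Gatm, which takes arginine into creatine synthesis, averaged 7.73 CPM in LP 3M PIC, 19.8 CPM in LP 3M and 11.6 CPM in LP PIC, against 41.5 CPM in LP. It fell in LP 3M PIC (-2.29 ± 0.20, adjusted p = 1.81e-08), in LP 3M (-0.95 ± 0.19, 0.000732) and in LP PIC (-1.79 ± 0.20, 7.11e-07). Gamt, the next enzyme of creatine synthesis, fell in LP 3M PIC (-2.17 ± 0.16, 1.05e-09), in LP 3M (-0.99 ± 0.15, 3.23e-05) and in LP PIC (-0.76 ± 0.15, 0.000299). Aldh18a1, which feeds proline synthesis, rose in LP 3M (0.29 ± 0.10, 0.022) and fell in LP PIC (-0.48 ± 0.10, 0.000518). Cps1 was listed at 0 in all libraries. Of the 4 tested remaining nitric oxide genes, Nosip, which binds nitric oxide synthases, rose in LP 3M PIC (0.39 ± 0.07, 0.000167) and in LP PIC (0.61 ± 0.07, 2.16e-06). Nostrin fell in LP 3M PIC (-1.07 ± 0.11, 1.7e-07), in LP 3M (-0.67 ± 0.11, 0.000123) and in LP PIC (-0.40 ± 0.11, 0.00699). Nos1, the neuronal synthase, fell in LP 3M (-2.65 ± 0.61, 0.00197) on at most 27 reads in a library. It averaged 0.117 CPM in LP 3M and 0.785 CPM in LP, and passed the filter on low counts through groups other than LP 3M. In this list 1 gene rose and 1 fell in LP 3M PIC, 2 fell in LP 3M, and 2 rose and 1 fell in LP PIC.

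For each gene with a called change of at least 1 in log2 against LP, the nearest patterns among 11516 genes were taken as those with the smallest mean absolute difference over 15 within-mouse log2 differences from LP. These differences share the LP library of each mouse. They include the amount added before any log2, which damps the changes of genes near the floor. A near pattern therefore need not share the edgeR fold changes given above. Nearest to Nos2 were Cfb (complement factor B, 0.931), H2-M2 (1.2) and Ptges (prostaglandin E synthase, 1.33), where the median gene lay 6.55 away. Nearest to Gch1 were Orai2 (a calcium channel subunit, 0.216), Rab20 (0.217) and Psmd10 (0.221), beside a median of 1.76. Orai2 averaged 142 CPM in LP 3M PIC, 89.5 CPM in LP 3M and 111.5 CPM in LP PIC, against 38.9 CPM in LP, close to Gch1 in level as well. Nearest to Arg2 were Adamts7 (0.355), Nupr1 (0.383) and Cd274 (the checkpoint ligand PD-L1, 0.393), beside 2.78. Slc7a2 lay nearest to Heatr9 (0.682) and Slamf6 (0.689), beside 2.52, and Arg1 to Sema4c (0.565), Pde5a (0.604) and 2010005H15Rik (0.651), beside 1.22. The distances for Arg1 were thus nearer to the median gene's than those for Nos2, Gch1 and Arg2. In edgeR, Heatr9, at 0.0174 CPM in LP, changed by 7.93 in LP 3M PIC against LP, beside 4.76 for Slc7a2. Adamts7, at 0.0982 CPM in LP, changed by 6.27 there, beside 4.26 for Arg2. Cfb changed by 7.13, beside 10.19 for Nos2, which is itself near the floor in LP. Orai2, well above the floor, changed by 1.97, closer to the 2.23 of Gch1.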

How the data were processed

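RNA of 20 BMDM libraries was measured, 5 mice in each of 4 groups. The deposited values are whole-number counts of reads per gene symbol, which the authors had not normalised, as the values show. The submitters' processing notes list HTSeq 0.13.5 and STAR 2.7.11b, besides DESeq2 1.44.0 and FastQC 0.11.1, on GRCm38. Neither the gene annotation nor the strandedness chosen for counting is stated there. Per the labels' protocols, libraries came from a stranded kit with poly(A) enrichment. Poly(A) capture leaves out RNA without a tail, and counts of genes with near-identical copies depend on how shared reads were treated. Of 5 entries that name no gene, 3 were at 0, reads outside genes made up 5.94 to 8.58% and ambiguous reads 1.14 to 1.9%; all stayed out of library sizes.

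Tests ran in edgeR 4.0.16 (limma 3.58.1, R 4.3.3), with DESeq2 1.42.0 as an alternative. Tables and plots used numpy 2.4.6, pandas 2.3.3 and matplotlib 3.10.9 under Python 3.11.15. A filter on low counts, filterByExpr, was applied (minimum count 10, minimum total 15), which left 12132. One robust quasi-likelihood model with TMM scaling (factors 0.945 to 1.07) and a mean per group over all 20 libraries gave 7 two-sided contrasts. The SE follows from the F statistic (size of the log2 change over the root of F). CPM in the text use plain library totals, with 0.5 added before any log2. The code was tested on simulated data.

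The labels give the mouse of each library, so that libraries of 1 mouse are paired across groups. Deviations from group means correlated over the 30 same-mouse pairs at 0.137 to 0.541. For 19 of 20 libraries, the mean correlation with libraries of the other groups was highest for their own mouse. Alternatives were RLE scaling, no scaling, no filter, DESeq2, the mouse as a block, the compared groups alone, leaving out each mouse or 1 of 3 libraries, and mice 3 to 5 alone, which was added after the data were seen. No 2 libraries were duplicates (chi-squared per degree of freedom at least 7.73). Coordinates are from GENCODE M21 (23376 symbols, 95.7%, matched). RefSeq promoters were found for 3 of the 8 genes.

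The 8 genes, the lists and the tests were chosen with earlier results of these data known. All 8 genes are named, and from each list the called genes with the largest rise and fall against LP and genes at 0 throughout. For genes with a called change of at least 1 in log2, the 3 nearest patterns with 1 CPM or more in the highest group are named. Some genes that this rule would name are not reported here.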

Additional observations from a re-analysis of the deposited data

Results flagged for a closer look

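The level of Ass1 in LP of mouse 5, 0.179 CPM from 4 reads, stood apart from the other 4 LP libraries, all at 0. It was the 1 value so far from its group among 32 gene-by-group sets looked at. With the other 4 libraries at 0, the gap to them is the whole range whatever the read count. The rate at which chance flags, about 1 in 20, therefore does not apply to it.

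In the main fit over all 5 mice, the change by PIC differed on the log2 scale with and without 3M for 3 genes. For Nos2 it was 3.72 with 3M and 8.77 without it, a difference of -5.05 (adjusted p = 0.00932, edgeR). For Arg2 it was 1.5 with 3M and 3.93 without it, a difference of -2.43 (0.000215). For Gch1 it was 0.868 with 3M and 1.69 without it, a difference of -0.825 (0.00727). The changes without 3M rest on 22 LP reads in all for Nos2 and 48 for Arg2. The calls for Nos2 and Gch1 were lost without mouse 1, 2 or 4, and those for all 3 genes in mice 3 to 5 alone. On the CPM scale Nos2 in LP 3M PIC lay above the sum of its single effects in 5 of 5 mice.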

How the results depend on the processing

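Over 717 recalculations of 49 log2 changes, 664 kept direction and side of the threshold, 30 lost and 19 gained the call and 4 turned direction. Those 4 are Odc1 in LP PIC against LP (-0.013 without scaling factors, and -0.022 to 0.051 leaving out 1 mouse at a time, the lowest without mouse 5), Asl in LP 3M against LP (-0.013 without scaling factors) and Asl in LP 3M PIC against LP PIC (0.017 in mice 3 to 5). The cause was not tested. The number of the 7 genes called for the interaction was 3, 5 with the replicate block, 0 in mice 3 to 5 with edgeR (Arg1 was not tested there), and 1 to 3 leaving out 1 mouse at a time. Called in LP 3M PIC against LP PIC were 5, 3 in mice 3 to 5 (again without Arg1, 1 of the 5), and 4 to 5 leaving out 1 mouse at a time. Fits on the compared groups alone give no interaction. Of the calls on the 7 genes, the pairing by mouse changed only those printed with the block. The block also moved the called polyamine genes for the interaction to 2, in place of 0, and the remaining nitric oxide genes in LP 3M against LP PIC to 2, in place of 1.

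Over all genes, calls moved by over 1.5 times for the interaction (1023, 1656 with the block, 69 in mice 3 to 5, 182, 291 and 242 without mouse 1, 2 and 4) and in mice 3 to 5 for LP 3M against LP (4790, then 2795) and LP 3M PIC against LP PIC (5397, then 3237). In mice 3 to 5, 1 of the transport genes was called in LP 3M against LP in place of 3. In a fit on LP 3M and LP alone, 1 of the remaining nitric oxide genes was called in place of 2. For the 38 list genes calls moved in the same 3 mice for LP 3M PIC against LP PIC (21, then 12). Without scaling factors the median of all genes shifted by -0.112 in LP 3M PIC and -0.109 in LP 3M against LP. The share of calls that were higher was then 40.3% in LP 3M PIC against LP (50.9% with factors), 32.1% in LP 3M against LP (50.6%), 40.3% in LP 3M PIC against LP PIC (52%), 41.6% in LP 3M against LP PIC (51.8%) and 55.6% for the interaction (45.3%). Nos2 in LP, Arg1 in LP PIC of all mice and in the other groups outside mice 1 and 2, and Ass1 throughout lie near the floor of 3 counts, so their depth limits what can be told. The same holds for Arg2 in LP, with 3 to 19 reads per library.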
